A study of Mus musculus with 6 samples.

Results

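The BCL2 family decides whether the outer mitochondrial membrane stays closed or opens, the step that commits a cell to intrinsic apoptosis. Pro-survival proteins (Bcl2, Bcl-xL from Bcl2l1, and Mcl1) bind and hold the effectors Bax and Bak, which otherwise form pores that release cytochrome c. BH3-only proteins (Bim from Bcl2l11, Bid, Puma from Bbc3, Noxa from Pmaip1, and Bad) neutralise the pro-survival proteins, and some of them also activate the effectors. The members bind each other through a short helix, the BH3 domain, which sits in a groove of the pro-survival partner. Noxa is known to bind Mcl1 and not Bcl-xL, while Bad is known to bind Bcl2 and Bcl-xL and not Mcl1.

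The 10 family genes examined were taken from a list of names, which was chosen with earlier results of these data known. All 10 were found among the 20687 gene symbols of the table, and all 10 passed the filter on low counts, which left 15212 genes tested. RNA of KP cells, a lung tumour line from C57BL/6 mice, was compared with RNA of whole C57BL/6 lung that had received the line. The lung group comprised 3 samples, each pooled from 3 mice of a separate experiment, and the mice had been given 100000 KP cells through the tail vein 28 days before the lungs were taken and digested with collagenase. The cell line group comprised 3 preparations, and the labels do not name separate cultures. The p-values of the comparison rest on the spread within both groups, and the part between cell line preparations may be technical. The labels give neither the genotype of the line nor the age of the mice, and no lung free of tumour was compared.

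Total estimated counts per sample lay between 17786758 and 22862396. The tissue labels matched their defining markers. The summed level of 8 alveolar and airway epithelial markers was 20539 to 31243 CPM (counts scaled to library size, with sizes adjusted by the TMM method) in lung and 1.53 to 2.30 CPM in the cell line, where Sftpa1 had no count. The cell line samples also held 66.2 to 127 CPM over 10 B and plasma cell markers (239 to 464 in lung) and 33.0 to 42.6 CPM over 10 T cell markers (230.1 to 253 in lung). All 8 endothelial, 7 fibroblast, 6 natural killer cell and 5 red cell markers tested were higher in lung. In each group 1 sample stood apart, cell line replicate 1 and lung replicate 2. Correlations of log2 CPM across genes were 0.964 to 0.965 with cell line replicate 1 and 0.996 without it, and 0.914 to 0.939 with lung replicate 2 and 0.985 without it. Where leaving out either sample changed a member's call or direction, the value without it is given.

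The shared BH3 core is shown because it is the sequence feature that makes these genes 1 family, and because it was used to ask which of their transcripts could make a family protein. In the coding sequence of each gene's most counted coding transcript (GENCODE M21, build GRCm38), the core was searched as a leucine codon, any 3 codons, a glycine, alanine or serine codon and an aspartate codon. Each of the 9 genes shown had exactly 1 match, while Pmaip1, which is not shown, had more than 1. The 42 bases around it run 5′ to 3′, with the leucine codon and the closing pair of codons in capitals.
Bcl2: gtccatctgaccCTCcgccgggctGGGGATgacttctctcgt
Bcl2l1: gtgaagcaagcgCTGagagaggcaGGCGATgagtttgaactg
Mcl1: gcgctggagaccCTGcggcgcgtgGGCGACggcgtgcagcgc
Bax: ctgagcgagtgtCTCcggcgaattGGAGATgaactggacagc
Bak1: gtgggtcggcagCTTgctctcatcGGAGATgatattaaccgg
Bcl2l11: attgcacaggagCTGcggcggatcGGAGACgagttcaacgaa
Bid: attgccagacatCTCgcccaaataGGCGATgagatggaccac
Bbc3: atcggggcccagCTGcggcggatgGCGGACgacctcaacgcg
Bad: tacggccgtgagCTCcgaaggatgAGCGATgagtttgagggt
The closing pair began with a glycine codon in 7 of these genes, with an alanine codon (GCG) in Bbc3 and with a serine codon (AGC) in Bad. The pattern allowed glycine, alanine or serine from the start, and no gene outside the family was searched. The matches therefore show where the core lies in each gene and do not test whether it marks the family.

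Of the 10 members, 2 were higher in lung than in the cell line, Mcl1 and Pmaip1, and 2 were lower, Bcl2 and Bcl2l1. The other 6, among them both effectors, did not pass the test. Over all tested genes 31.3% were higher and 17.5% lower by the same rule (edgeR adjusted p below 0.05), so the share of members called in either direction was not far from that of all genes, which was 48.8%. In CPM the lung and cell line samples did not overlap for the same 4 members, 2 of them above and 2 below, against 62.2% of all tested genes (35.6% above and 26.6% below). The median log2 fold change (lung minus cell line) was -0.27 over the members and 0.08 over all tested genes. In whole lung a lower level can reflect fewer cells that express a gene or less of its RNA per cell, and these cannot be told apart.

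**Figure D1:**
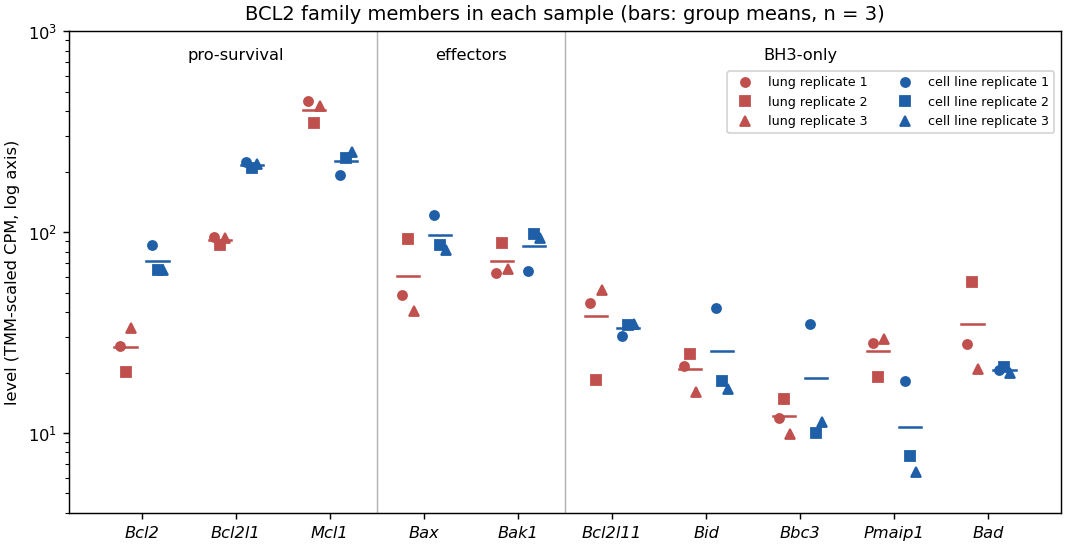
Level of each BCL2 family member in the 6 samples, in TMM-scaled CPM on a log axis, with lung in red, cell line in blue, a marker shape for each replicate and a bar at each group mean (n = 3). Bcl2 and Bcl2l1 lay lower in every lung sample, Mcl1 and Pmaip1 higher, and the groups overlapped for the other 6 genes.

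Among the pro-survival genes, Bcl2l1 showed the tightest groups. It stood at 94.7, 86.6 and 93.6 CPM in lung replicates 1, 2 and 3, and at 224, 209 and 217 CPM in cell line replicates 1, 2 and 3. Every lung sample lay below every cell line sample, by a wide gap against the spread within either group. The means of 91.6 ± 4.39 and 217 ± 7.81 CPM (SD, n = 3 each) made it 2.37-fold lower in lung, a log2 fold change of -1.24 (SE 0.22, edgeR adjusted p = 0.00199). Bcl2l1 encodes Bcl-xL, a pro-survival protein common in epithelial tumours.

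Bcl2, the founding member and the main survival factor of resting lymphocytes, followed the same direction. Its level was 27.0, 20.04 and 33.5 CPM in lung and 86.7, 64.6 and 65.0 CPM in the cell line. The groups did not overlap, and cell line replicate 1 was the highest. The means were 26.8 ± 6.71 and 72.1 ± 12.7 CPM (SD, n = 3), with a log2 fold change of -1.43 (SE 0.28, edgeR adjusted p = 0.00346). Bcl2 and Bcl2l1 passed the threshold in all 17 alternative fits, with log2 fold changes from -1.62 to -0.98 and from -1.35 to -1.01.

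B and T cells also express Bcl2, and lymphocyte markers were present in the cell line samples. The summed B and plasma cell markers stood at 127, 116 and 66.2 CPM in cell line replicates 1, 2 and 3, and the T cell markers at 39.1, 42.6 and 33.0 CPM. Replicate 1 was the highest for Bcl2 and for the B and plasma cell markers. From cell line replicate 2 to replicate 3 the summed B and plasma cell markers changed by a ratio of 0.571 and the T cell markers by 0.775. Bcl2 changed by a ratio of 1.006, and Bcl2l1 by 1.04. In lung all 10 genes of each marker list were higher. The part of lymphocyte RNA in the level of Bcl2 was not tested.

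Mcl1, a short-lived pro-survival protein that myeloid and lymphoid cells depend on, went the other way. It stood at 451, 348 and 425 CPM in lung and at 193, 233 and 250.5 CPM in the cell line. All lung samples were above all cell line samples. The means of 408 ± 53.5 and 226 ± 29.5 CPM (SD, n = 3) gave a log2 fold change of 0.85 (SE 0.26, edgeR adjusted p = 0.0244). The direction was the same in all 17 alternatives, but the call was lost without lung replicate 1 (edgeR adjusted p = 0.0957), lung replicate 3 (0.0714), cell line replicate 2 (0.131) or cell line replicate 3 (0.0862), and it held without lung replicate 2 (0.00886) or cell line replicate 1 (0.0438).

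The ratio of Mcl1 to Bcl2l1 within a sample does not depend on how libraries are scaled to each other. Per length, as TPM (counts divided by transcript length and scaled to the same sum in each sample, computed here from annotated transcript lengths), Mcl1 stood at 3.35, 2.74 and 3.22 times Bcl2l1 in the lung samples. In the cell line samples it stood at 0.578, 0.747 and 0.821 times Bcl2l1. Per length, Mcl1 was the higher of the pair in each lung sample and Bcl2l1 the higher in each cell line sample. The order in the cell line depends on the division by length, since in CPM Mcl1 stood above Bcl2l1 in cell line replicates 2 and 3 as well.

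Further pro-survival genes of the family filled a large part of the lung total. Bcl2a1 (A1), a pro-survival protein of neutrophils, macrophages and activated lymphocytes, has near-identical copies in the mouse whose reads the quantification splits, so Bcl2a1a, Bcl2a1b and Bcl2a1d were summed. The sum was 75.4, 159 and 62.0 CPM in lung and 1.73, 1.96 and 1.16 CPM in the cell line. All 3 copies were higher in lung, with log2 fold changes of 6.89, 5.84 and 5.60 (edgeR adjusted p at most 0.000115). The ratio of the group means of the sum was 61.1, and 42.6 without lung replicate 2. Bcl2l2 (Bcl-w) did not pass, at 56.2 ± 13.5 against 31.6 ± 9.63 CPM (SD, n = 3, log2 fold change 0.83, edgeR adjusted p = 0.0555), and it did pass without cell line replicate 1 (1.10, 0.0203) or lung replicate 2 (0.96, 0.0220). Bcl2l10 was at or under 2 counts in every sample and was not tested.

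Myeloid markers were also higher in lung, as were the marker lists of the other lung cell types. Of 10 macrophage and monocyte markers 9 were higher in lung. Summed over the list they stood at 7510, 9734 and 8175 CPM in lung replicates 1, 2 and 3, against 135 to 257 CPM. All 6 tested neutrophil markers were higher, with sums of 187, 338 and 254 against 3.37 to 5.51 CPM. Lung replicate 2 was the highest for both lists and for the Bcl2a1 sum. In that sample short transcripts were high, as described below. The Bcl2a1 genes (817 to 863 bases) stood at log2 ratios of 1.15 to 1.27 to the mean of lung replicates 1 and 3. The median was 1.08 over all tested genes at 1 CPM or more in the length bin around 881 bases. Lung replicate 3 lay above lung replicate 1 in both lists and below it in the Bcl2a1 sum. The part of myeloid cells in the Bcl2a1 result was not tested. From cell line replicate 2 to 3 the Bcl2a1 sum changed by a ratio of 0.592, on 93 counts over the 3 cell line samples.

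Taking 8 pro-survival genes together per length, the make-up of the sum differed between the groups mainly in Bcl2l1 and the Bcl2a1 genes. Bcl2l1 made up 13.8%, 10.7% and 14.8% of it in lung and 53.3%, 50.8% and 49.6% in the cell line. The Bcl2a1 genes made up 31.8%, 55.2% and 28.5% in lung and 1.13%, 1.317% and 0.705% in the cell line. For both the groups did not overlap (exact two-sided permutation p = 0.1, the lowest p possible with 3 samples in each group). The share of Mcl1 was 41.1 ± 10.1% in lung and 36.5 ± 5.10% in the cell line (SD, n = 3), and the groups overlapped (exact permutation p = 0.6). The overlap rested on lung replicate 2, where Mcl1 made up 29.4%, against 46.2% and 47.5% in the other lung samples and 30.8%, 38.0% and 40.7% in the cell line. In that sample levels followed transcript length, as described below, with short transcripts high. The Bcl2a1 genes have mean transcript lengths of 817 to 863 bases and Mcl1 of 3371 bases. Shares with the length trend removed were not computed. The difference of 4.56 percentage points was 10.4 with lung replicate 2 left out and 1.73 with cell line replicate 1 left out. Bcl2 made up 1.36 ± 0.467% in lung and 5.48 ± 1.07% in the cell line (SD, n = 3).

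**Figure D2:**
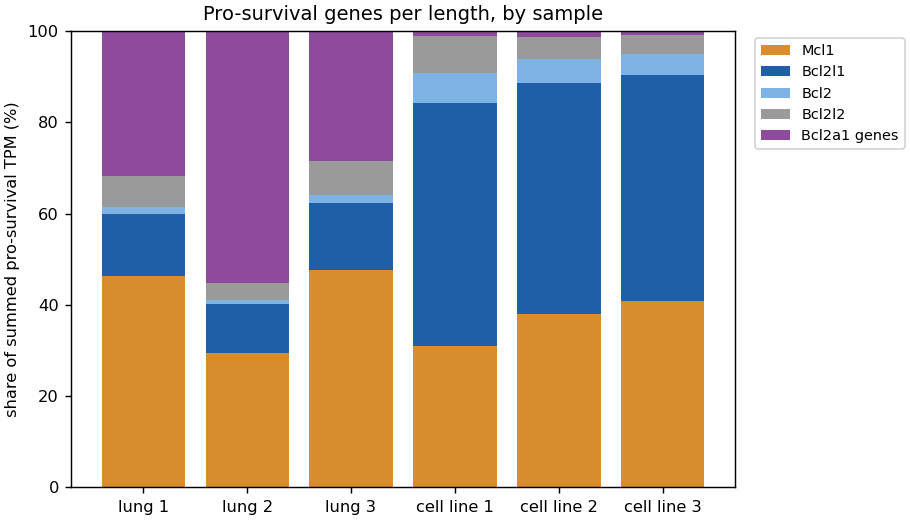
Share of each pro-survival gene in their summed TPM, in percent, for each lung and cell line replicate (Bcl2l10, at 0.022% or less, is not drawn). Bcl2l1 filled 49.6% to 53.3% of the cell line bars and 10.7% to 14.8% of the lung bars, where the Bcl2a1 genes filled 28.5% to 55.2%. The highest Bcl2a1 share was that of lung replicate 2, whose levels followed transcript length.

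The effectors Bax and Bak1, the pore formers, did not pass the test in the fit to all 6 samples. Bax stood at 48.9, 92.0 and 40.5 CPM in lung and at 121, 86.2 and 81.7 CPM in the cell line. Lung replicate 2 lay inside the cell line range and the other lung samples below it. The means of 60.5 ± 27.6 and 96.4 ± 21.7 CPM (SD, n = 3) gave a log2 fold change of -0.67 (SE 0.36, edgeR adjusted p = 0.153). Without lung replicate 2 Bax was lower in lung (log2 fold change -1.17, edgeR adjusted p = 0.00722), as it was with the length trend described below removed (-1.09, 0.00198).

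Bak1 stood at 62.4, 88.1 and 65.7 CPM in lung and at 64.1, 97.9 and 93.1 CPM in the cell line. Lung replicates 1 and 3 and cell line replicate 1 were low, and the other samples were high, so the groups overlapped. The log2 fold change was -0.24 (SE 0.27, edgeR adjusted p = 0.493), and -0.01 with library size alone. It was -0.47 without lung replicate 2 (edgeR adjusted p = 0.124), -0.42 without cell line replicate 1 (0.186) and -0.58 without both (0.00105), the last from a fit that takes its spread from the closest samples. Counting only transcripts annotated as protein coding gave -0.98 (SE 0.35, edgeR adjusted p = 0.0471). The transcripts left out there are annotated as targets of nonsense-mediated decay, which degrades RNAs with early stop codons, and the coding ones held from 16.2% (lung replicate 2) to 59.6% (cell line replicate 2) of the Bak1 counts of a sample.

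The BH3-only genes did not move as a class. Pmaip1 (Noxa), the partner of Mcl1, was the only 1 of the 5 past the threshold. It stood at 28.2, 18.9 and 29.5 CPM in lung and at 18.1, 7.66 and 6.43 CPM in the cell line. Lung replicate 2 and cell line replicate 1 were close, and the other samples lay far apart. Per length the groups overlapped, with 9.98 TPM in lung replicate 2 and 11.9 TPM in cell line replicate 1. The means of 25.5 ± 5.74 and 10.7 ± 6.41 CPM (SD, n = 3) gave a log2 fold change of 1.25 (SE 0.43, edgeR adjusted p = 0.0413). Without cell line replicate 1 the log2 fold change was 1.84 (edgeR adjusted p = 0.00386). The call was lost without lung replicate 1 (0.104), lung replicate 3 (0.0921), cell line replicate 2 (0.142) or cell line replicate 3 (0.143).

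Bcl2l11 (Bim), a BH3-only protein that binds all pro-survival members, stood at 44.2, 18.4 and 51.8 CPM in lung and at 30.3, 34.5 and 34.9 CPM in the cell line. The lung samples fell on both sides of the tight cell line group. The log2 fold change was 0.20 (SE 0.37, edgeR adjusted p = 0.683), 0.47 without lung replicate 2 (0.0541) and -0.081 without lung replicate 3 (0.888). Bad, a sensitizer that growth factor signalling holds inactive by phosphorylation, showed the opposite unevenness. It stood at 27.7, 56.3 and 20.9 CPM in lung and at 20.6, 21.3 and 19.9 CPM in the cell line, with lung replicate 2 far above the rest. Its log2 fold change of 0.76 (SE 0.37, edgeR adjusted p = 0.126) was 0.18 without lung replicate 2 (0.436) and 1.03 without lung replicate 3, where Bad passed the threshold (0.0465).

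Bid, which caspase-8 cleaves to link death receptors to mitochondria, stood at 21.6, 24.7 and 16.0 CPM in lung and at 41.8, 18.1 and 16.7 CPM in the cell line. Bbc3 (Puma), a potent BH3-only protein induced by p53, stood at 11.8, 14.8 and 9.93 CPM in lung and at 34.8, 9.97 and 11.4 CPM in the cell line. In both genes cell line replicate 1 was the highest of the 6 samples and the other cell line samples lay within the lung range or near it. The log2 fold changes were -0.30 for Bid (SE 0.40, edgeR adjusted p = 0.563) and -0.62 for Bbc3 (SE 0.49, edgeR adjusted p = 0.326). Without cell line replicate 1 they turned to 0.25 (0.454) and 0.18 (0.593), so neither gene has a direction that holds.

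**Figure D3:**
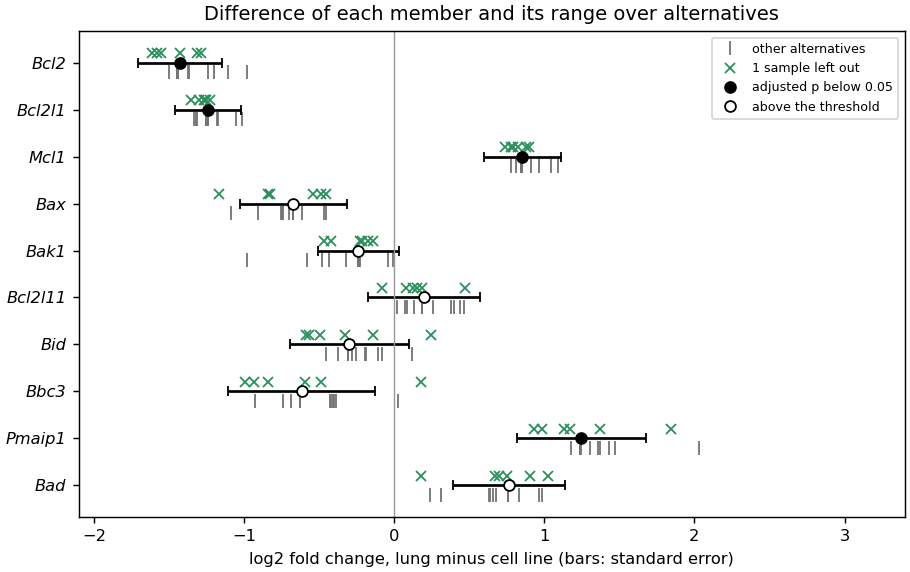
Log2 fold change of each member, lung minus cell line, with its standard error (black, filled where adjusted p is below 0.05), the values with 1 sample left out (green crosses) and those under the other alternatives (grey ticks). Bcl2 and Bcl2l1 stayed left of 0 and Mcl1 and Pmaip1 right of 0 in every fit, whereas Bcl2l11, Bid and Bbc3 had values on both sides.

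Part of the unevenness in lung followed transcript length. In lung replicate 2 the log2 ratio to the mean of lung replicates 1 and 3 had a median of 0.76 over the quartile of genes with the shortest transcripts and of -1.004 over that with the longest. The members followed the direction of this slope, though not all lay on it. Bax, with a mean transcript length of 890 bases, stood at 1.04, and Bad, with 952 bases, at 1.21. Bcl2l11, with 4391 bases, stood at -1.38, and Bcl2, with 6939 bases, at -0.59. The median over all genes was -0.88 in the length bin around 4402 bases, above Bcl2l11. It was -1.12 and -1.22 in the bins around 5868 and 7757.5 bases, below Bcl2. Bcl2l1, with 2331 bases, stood at -0.12. Cell line replicate 1 showed no such slope, with medians of 0.00 and 0.05 in the shortest and longest quartiles. With the trend removed through a loess offset for each sample, the calls of Bcl2 (-0.98), Bcl2l1 (-1.33), Mcl1 (0.97) and Pmaip1 (1.24) held and Bax was added to the lower genes.

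**Figure D4:**
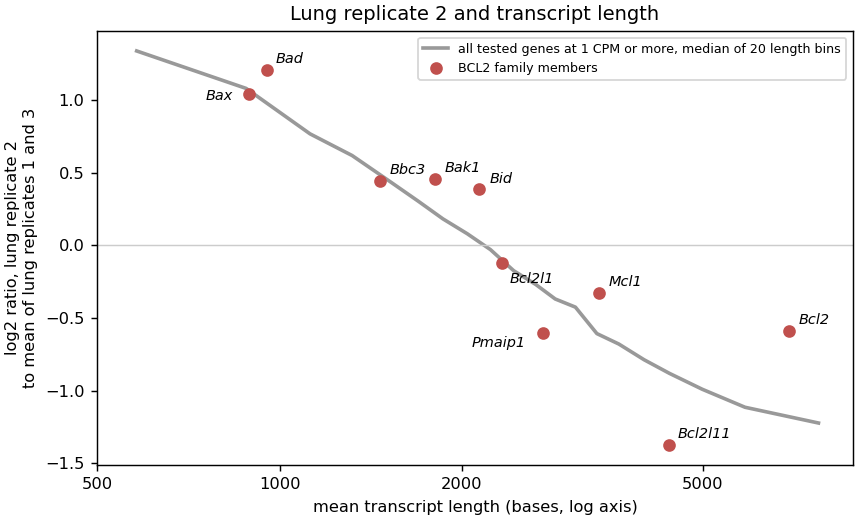
Log2 ratio of lung replicate 2 to the mean of lung replicates 1 and 3 for each member (red) against its mean transcript length in bases on a log axis, with the median over all tested genes at 1 CPM or more in 20 length bins (grey). The short genes Bax and Bad lay above 1, near the slope of all genes. Bcl2l11 (-1.38) lay below that slope and Bcl2 (-0.59) above it.

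Cell line replicate 1 held more RNA of 3 of the 5 BH3-only members than the other cell line samples. Relative to the mean of replicates 2 and 3, Bbc3 stood 3.26 times as high in it, Pmaip1 2.57 times and Bid 2.41 times. Bcl2l11 (0.872) and Bad (0.999) did not share this, and the pro-survival members lay between 0.798 for Mcl1 and 1.34 for Bcl2. Of 23 tested genes of the wider family 5 stood at 2 or more, the other two being Bnip3 (4.38), a hypoxia-induced mitophagy receptor, and Bmf (3.17), a BH3-only protein. Among 12028 genes with a mean of 1 CPM or more over all samples and in the cell line, 8.01% stood at 2 or more. The family genes were not held to this floor, and Bcl2a1a (0.180 CPM in the cell line), Bcl2a1b (0.817) and Bcl2a1d (0.618) were among those under it. All of these ratios are of single samples, with no replicate check.

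Some genes outside the family also stood apart in that sample. Ddit3, which encodes the stress transcription factor CHOP, stood at 249.8 CPM in cell line replicate 1 and at 4.32 and 5.06 CPM in the others. Sesn2, a stress-induced sestrin, stood at 81.4 against 11.9 and 15.9 CPM, and Trp53inp1 at 200.4 against 15.4 and 13.9 CPM. Birc5 (survivin), a mitotic protein of the inhibitor-of-apoptosis family, stood at 7.70 CPM against 115 and 118 CPM. Their part in the levels of Bbc3, Pmaip1 and Bid was not tested. Ddit3, Sesn2, Trp53inp1 and Birc5 were chosen after their values were seen.

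**Figure D5:**
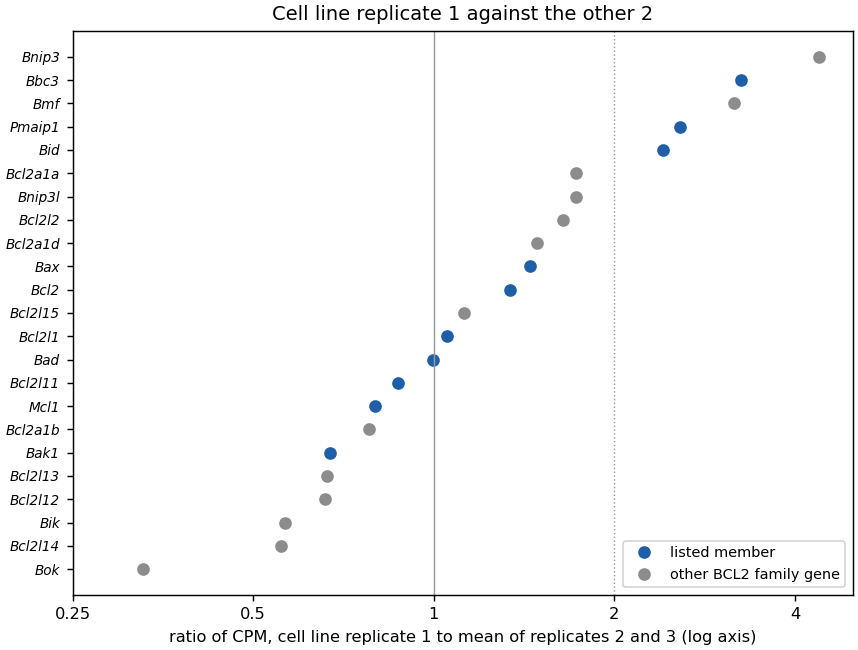
Ratio of CPM in cell line replicate 1 to the mean of replicates 2 and 3, on a log axis, for the 23 tested BCL2 family genes, with the listed members in blue. Bnip3, Bbc3, Bmf, Pmaip1 and Bid stood above 2 (dotted line), and Bok was the lowest at 0.327.

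Per length, the order of the members differed between the groups. In the cell line Bax (195 ± 45.6 TPM) and Bcl2l1 (170 ± 6.86 TPM) were the highest and overlapped, followed by Mcl1 (121 ± 19.6) and Bak1 (89.3 ± 19.7), whose ranges lay next to each other at 101.3 TPM. In lung Mcl1 was the highest (225 ± 68.3 TPM, SD, n = 3), and its range of 146 to 268 TPM touched that of Bax, 93.4 to 149 TPM. Bcl2l1 (71.4 ± 15.6), Bak1 (67.6 ± 4.70) and Bad (61.4 ± 22.6) followed in lung with overlapping ranges. Pmaip1, Bid, Bcl2l11 and Bbc3 lay between 14.3 and 17.9 TPM on average in lung, not separable by their spread. Bcl2 was the lowest member in lung at 7.47 ± 2.82 TPM, with a range that overlapped those of Bcl2l11 and Pmaip1, and in the cell line Pmaip1 was, at 7.02 ± 4.25 TPM, below Bcl2l11 at 14.3 ± 1.90 TPM.

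At the level of transcripts, 32 of the 48 transcripts of the members in the table coded for the BH3 core. Nearly all counts of Bcl2, Mcl1, Pmaip1, Bcl2l1, Bax, Bid and Bad came from such transcripts, with shares of 96.6% or more in each sample. In Bcl2l11 the share was 90.5% to 97.2% and in Bbc3 82.6% to 86.3% in lung and 71.1% to 78.8% in the cell line, the rest of Bbc3 being mostly a transcript with a retained intron. In Bak1 the share was only 48.5% to 68.6%. Transcript shares are estimates from short reads, and they describe how the quantification assigned reads between overlapping models.

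The estimated transcript shares of Bcl2l11 differed between the samples of the 2 groups, and are described here with no test. A transcript coding 196 residues, the length of the extra-long form of Bim, held 96.8%, 89.9% and 95.3% of the counts in lung and 84.7%, 69.0% and 78.6% in the cell line. A transcript coding 140 residues, the length of the long form, which lacks the stretch that ERK phosphorylates for degradation, held 11.4% (95% Wilson interval 9.20% to 14.1%), 24.2% (20.9% to 27.8%) and 18.3% (15.5% to 21.4%) in the cell line. In lung it held 0.271% (0.0921% to 0.793%), 0.480% (0.132% to 1.73%) and 1.81% (1.15% to 2.84%). The groups did not overlap for either transcript, but the 2 shares are parts of the same gene total and are not independent. How many of all transcripts separate in this way was not counted. The Wilson intervals cover counting error only. The 2 models also differ in annotated length (5036 and 3538 bases), so the shares depend on the read coverage of their ends.

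Bak1 counts were split between coding transcripts and decay targets. The full-length coding transcript (209 residues) held 31.1%, 16.0% and 41.0% of the counts in lung and 40.2%, 42.3% and 33.1% in the cell line. A decay target that lacks the BH3 core held 43.0%, 51.5% and 31.5% in lung and 41.0%, 40.4% and 37.8% in the cell line, with overlapping groups. Another decay target, which keeps the core, held 17.2%, 32.4% and 19.0% in lung but 1.31%, 0% (Wilson upper bound 0.226%) and 6.46% in the cell line.

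The rest of the family and pathway was read from lists chosen with earlier results of these data known. Of 9 further tested BH3-only, effector-like and divergent genes 3 were higher in lung (Bik, Bmf and Bcl2l14) and 2 lower (Bcl2l13 and Bcl2l15), and Hrk was too low to test. Over all tested genes 31.3% were higher and 17.5% lower by the same rule. Bmf, which is sequestered at the cytoskeleton and released on loss of attachment, stood at 39.9 ± 13.7 against 8.32 ± 6.06 CPM (SD, n = 3, log2 fold change 2.26, edgeR adjusted p = 0.00810), and at 3.03 on the log2 scale without cell line replicate 1. Bik, a BH3-only protein of the endoplasmic reticulum, stood at 8.82 ± 3.89 against 0.141 ± 0.0423 CPM, the latter from 8 counts. Bcl2l15 was the gene with the largest decrease of this list, at 0.791 ± 0.149 against 7.10 ± 0.496 CPM (log2 fold change -3.17, edgeR adjusted p = 0.000215). Over the list the log2 fold change had a median of -0.20, of 0.10 without cell line replicate 1 and of 0.03 with library size alone. The call of Bcl2l13 was lost in 7 of the alternative fits, and 1 gene was lower without lung replicate 1 or without lung replicate 3.

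Of 18 genes of the apoptosome, the caspases and their inhibitors, 2 were higher in lung, among them Birc3, 3 were lower, among them Htra2 and Aifm1, and 13 did not pass. Over all tested genes 48.8% were called in either direction, 31.3% higher and 17.5% lower. Aifm1, a mitochondrial flavoprotein, stood at 42.9 ± 2.78 against 87.3 ± 23.8 CPM (SD, n = 3, log2 fold change -1.03, edgeR adjusted p = 0.0152), and its call was lost without cell line replicate 2 (edgeR adjusted p = 0.0519) or 3 (0.0578). Apaf1, Casp9 and Cycs, the parts of the apoptosome, had log2 fold changes of -0.44, 0.50 and -0.24 and did not pass (edgeR adjusted p = 0.304, 0.212 and 0.647). The call of Htra2, a mitochondrial protease, was lost in 6 of the alternative fits. Without lung replicate 2 the list had 4 higher and 3 lower genes, without cell line replicate 1 it had 3 and 3, and without cell line replicate 2 or 3 it had 2 and 1. With library size alone it had 6 higher and 2 lower, and with 10 or more counts in all samples 5 and 2, so the balance of this list depends on the scaling and the filter.

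Of 16 regulators of the family 6 were lower in lung (Huwe1, Usp9x, E2f1, Vdac1, Bag6 and Ywhaz), 1 was higher and 9 did not pass. The shares over all tested genes were 17.5% lower and 31.3% higher. A ligase that adds ubiquitin to Mcl1 and an enzyme that removes it were both among the lower genes. Huwe1, a ubiquitin ligase of Mcl1, stood at 210.4 ± 78.7 against 701 ± 89.9 CPM (SD, n = 3, log2 fold change -1.74, edgeR adjusted p = 0.00459), and Usp9x, its deubiquitinase, at 178 ± 68.0 against 505 ± 88.4 CPM (-1.51, 0.00952). Ywhaz, a 14-3-3 protein of the kind that binds phosphorylated Bad, stood at 573 ± 29.0 against 1311 ± 208 CPM (-1.19, 0.00810). Trp53 was the higher gene, at 51.5 ± 7.83 against 7.24 ± 1.56 CPM (2.83, 0.000118). Without lung replicate 2 the list had 2 higher and 8 lower genes, and without cell line replicate 1 it had 2 and 7. With the length trend removed the list had 2 and 9, and with library size alone 1 and 5. Without both samples it had 4 and 11, from a fit that takes its spread from the closest samples.

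Known p53 targets outside the family went both ways. Of 16, 5 were higher in lung (Cdkn1a, Phlda3, Eda2r, Fas and Btg2), 2 lower (Aen and Tnfrsf10b) and 9 did not pass, with a median log2 fold change of 0.01. Over all tested genes 31.3% were higher and 17.5% lower, with a median of 0.08, so the list lay near the background. Without lung replicate 2, 5 were higher and 4 lower, without lung replicate 1, 5 and 1, and without cell line replicate 1, 6 and 3, with a median of 0.34. Cdkn1a, the cell cycle inhibitor p21, stood at 69.6 ± 9.72 against 16.7 ± 6.94 CPM (SD, n = 3, log2 fold change 2.05, edgeR adjusted p = 0.00139). Btg2, an antiproliferative gene, stood at 132 ± 23.6 against 57.9 ± 16.7 CPM (1.19, 0.0115). Tnfrsf10b, the mouse TRAIL death receptor, stood at 19.0 ± 3.83 against 71.3 ± 2.49 CPM (-1.91, 0.000422). The p53 targets of the family itself gave no common direction either, as Bax and Bbc3 did not pass the test and Pmaip1 was higher.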

How the data were processed

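RNA-seq of 3 lung and 3 cell line samples was analysed from 1 table of estimated counts per transcript, not scaled to library size, as deposited. Salmon 1.4.0 and build GRCm39, with FastQC 0.11.9 and DESeq2 1.32.0, are named per the submitters' processing notes. Other settings are not given in the sources. Of 76776 transcripts, 76521 (99.67%) matched GENCODE M21 (build GRCm38), used for names, lengths and coding sequences, without coordinates. The 255 unmatched transcripts (at most 0.416% of a sample's counts) were left out.

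Gene sums, rounded, went into edgeR 4.0.16 (R 4.3.3, quasi-likelihood F test) with TMM scaling, the package's expression filter, group as the only term and Benjamini-Hochberg adjustment over 15212 genes at 0.05. SE is the absolute log2 fold change over the square root of F. A count of 0 allows up to 3 counts, 0.131 to 0.169 CPM, for counting error only. TPM uses annotated, not effective, lengths.

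Alternatives were other scalings and filters, DESeq2 1.42.0, limma-voom (limma 3.58.1), a replicate block, coding transcripts only, 2 length offsets and samples left out. List counts under these were added after the data had been seen. The members and gene lists were chosen with earlier results of these data known. Named were all members, all further pro-survival genes and, of each list, the 2 called genes with the highest level in its main direction and the 1 that changed most the other way, and of each marker list the gene highest in lung (not all reported); genes named outside this rule complete a count or are said to be chosen after their values were seen. Some genes that the rule selects are not reported here. Scripts were tested on simulated data.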

Additional observations from a re-analysis of the deposited data

How the results depend on the processing

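Of the 10 members, Bcl2 and Bcl2l1 kept direction and call in all 17 alternatives, and Mcl1 and Pmaip1 kept their direction in all 17 and their call in 11 and 13. The number of members higher in lung was 2, and 1 with no filter on low counts (Mcl1 missed the threshold, edgeR adjusted p = 0.0558) and 0 to 2 with 1 sample left out. The number lower was 2, 2 to 3 with 1 sample left out, and 4 without cell line replicate 1 and lung replicate 2 together, a fit that takes its spread from the closest samples and whose calls are not comparable with the others. Replicate numbers showed no clear pairing, as deviations from the group means correlated at -0.05, 0.09 and -0.10 between same-numbered samples. Lung replicate 1 correlated best with cell line replicate 3 (0.09), lung replicate 2 with 2 (0.09) and lung replicate 3 with 1 (0.12). With 3 samples in each group, 1 of which stood apart, these values cannot exclude a pairing. With the replicate block 1 member was higher, Mcl1 missing the threshold (adjusted p = 0.0756), and 2 were lower. Directions turned for Bid (0.25 without cell line replicate 1, 0.12 also without lung replicate 2, and -0.59 to 0.25 with 1 sample left out), Bbc3 (0.18, 0.03, and -0.99 to 0.18) and Bcl2l11 (-0.081 without lung replicate 3, and -0.081 to 0.47 with 1 sample left out). Over all genes 4758 were higher and 2664 lower. The lower genes numbered 1728 with library size alone (75.1% of calls higher against 64.1%, the median log2 fold change moving by 0.23), 1701 with 10 or more counts in all samples (2555 higher, with 11994 genes tested and the median log2 fold change moving by 0.19), 4085 with the length trend removed and 5425 without the 2 samples, and 1820 to 3773 with 1 sample left out. With counts not divided by length the difference in share was 18.6 percentage points for Mcl1 (4.56 per length) and -26.1 for Bcl2l1 (-38.2 per length). The cause of the other changes was not tested. Without cell line replicate 1 and lung replicate 2, 7 and 7 apoptosome and caspase genes and 9 and 5 p53 targets were higher and lower.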

Other observations

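Smaller differences in transcript use were seen in other members, given as shares of estimated counts in the lung and then the cell line samples, with no test and chosen after their values were seen. In Bax a transcript coding 172 residues in place of 192 held 20.8%, 16.2% and 26.7% in lung and 11.4%, 8.62% and 13.0% in the cell line. In Bcl2l1 the 2 main transcripts both code 233 residues and differ outside the coding sequence, and the shorter of them (2417 bases) held 44.4%, 46.5% and 33.7% in lung and 22.7%, 30.5% and 26.9% in the cell line. In Bbc3 the transcript with a retained intron held 16.5%, 14.4% and 12.5% in lung and 19.8%, 21.5% and 27.8% in the cell line. In none of these did the lung and cell line samples overlap, but they were picked for their differences from the 48 transcripts of the members. How many of all transcripts separate in this way was not counted.

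The effectors Bax and Bak1 summed to 185 ± 23.8 TPM in lung and 284 ± 26.1 TPM in the cell line (SD, n = 3), and the 8 pro-survival genes to 542 ± 42.3 and 331 ± 13.4 TPM. The Bcl2a1 genes made up 38.5 ± 14.6% of the pro-survival sum in lung and 1.05 ± 0.313% in the cell line. Mean Mcl1 was higher in lung (225 against 121 TPM) and mean Bcl2l1 lower (71.4 against 170 TPM), so the sum does not describe each gene. The 5 BH3-only members summed to 134, 132 and 116 TPM in lung and to 144, 90.7 and 84.3 TPM in the cell line, with replicate 1 the highest of all samples.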
